A study of Mus musculus with 3 samples.

Results

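The isolated peaks found only in the list labelled WT were 225 of the 521 regions (43.2%) of that list, and of 1340 regions in both lists of a ChIP-seq labelled H3K4me3. They were chosen by position: a peak of the list labelled WT was taken when it shared no bp with any peak of the list labelled SUN1/2DKO and lay more than 100 kb from every other peak of its own list. Of the 284 peaks without overlap in the list labelled WT, the isolated ones made up 79.2% and the other 59 had a neighbour within 100 kb. Being in 1 list only and being isolated both depend on which peaks the lists used here hold, and the study's text gives more peaks for each label than these lists do.

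Both lists are labelled as PEMs, which in the study are thioglycollate-elicited peritoneal macrophages, and its methods give the mice as 6-week-old C57BL/6. The label WT stands for littermates that were Sun1 fl/fl and Sun2+/+, with a floxed Sun1 allele and no Cre listed. The label SUN1/2DKO stands for mice that were Sun1 fl/fl, LysM cre/cre and Sun2-/-, in which Cre from the LysM promoter is meant to remove Sun1 in myeloid cells and Sun2 is missing throughout. How many animals went into a library is not given in the sources used here. Each label had 1 ChIP library, so nothing here can be set against replicate error, and no difference between the genotypes is claimed. The IgG library labelled WT had no list of its own. Against these labels, the file headers name FAM181A as the ChIP target of the list labelled WT and TEAD4, a DNA-binding factor of the Hippo pathway, as that of the other, both against a control called input. The number of the library labelled IgG is that of the control named for the list labelled WT. No expression was measured, so the cells could not be checked against macrophage markers.

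H3K4me3 is a histone mark laid down around the start sites of active genes, where it forms blocks that spread from the promoter into the gene body. A ChIP-seq peak caller such as MACS finds these places as piles of aligned reads (tags) that exceed the same place in a control library. Each peak therefore has a length, a number of tags, a summit where the pile is highest, a fold enrichment (the pile at the summit over the background expected from the control) and a score, 10 times the negative log10 of its Poisson p. Nuclear envelope proteins of the SUN family link the nuclear lamina to the cytoskeleton, and the study asked whether their loss alters the mark.

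The positions of the isolated peaks are not those of a mouse genome. Of the 225, 16 lay on chromosomes 20, 21 and 22, which mice lack, and another 24 reached past the end of the last gene that RefSeq places on the mouse chromosome of that name (GRCm38.p6). Together these were 40 peaks, or 17.8% (95% Wilson interval 13.3% to 23.3%, counting error only), against 20.9% of the other 296 peaks of the list. The median fold enrichment of the isolated peaks outside the mouse limits was 15.5 (95% order-statistic interval 10.9 to 20.4, n = 40), and that of the 185 inside was 13.2 (12.9 to 14.6), with overlapping intervals. Among the other 296 peaks the order was the other way, with 8.27 outside and 10.0 inside.

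Read as mouse positions, the isolated peaks were no nearer to promoters than the span up to the last gene of each chromosome. The 24 peaks that reached past that gene were kept among the summits, which can lower the shares near a promoter. On the chromosomes for which a mouse TSS (transcription start site) was given, 3 of 206 summits (1.46%, Wilson interval 0.496% to 4.19%) lay within 1 kb of one, where 2.18% of the span lies as near. Within 5 kb there were 13 summits (6.31%) against 9.90% of the span, and within 10 kb there were 30 (14.6%) against 18.1%. All isolated peaks lay on chromosomes 1 to 22 and X, and the positions are given as the lists have them, in a build that the headers do not name. A negative peak of the list labelled SUN1/2DKO reaches 146.1 Mb on chromosome 8, which from general knowledge, with no file here to check it, lies past the end of that chromosome in hg38. A human genome was not used here, so no peak was assigned to a gene, no start site of the build behind these positions was examined, and no sequence is printed.

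The isolated peaks were short and shallow piles with a high fold enrichment. Their median length was 625 bp (95% order-statistic interval 583 to 658), with a range from 224 to 5138 bp. They held a median of 19 tags (17 to 20), from 10 to 152. Their median fold enrichment was 13.6 (12.9 to 14.6), from 3.26 to 54.11, and their median score 69.7 (63.6 to 84.5). These intervals are for the median over regions of 1 library, which are not replicates, and do not give the spread of the regions. The quartiles were 500 and 793 bp for length, and 10.24 and 20.49 for fold enrichment. All of these values come from the library that chose the peaks, so they are a description and no test was made on them.

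**Figure D1:**
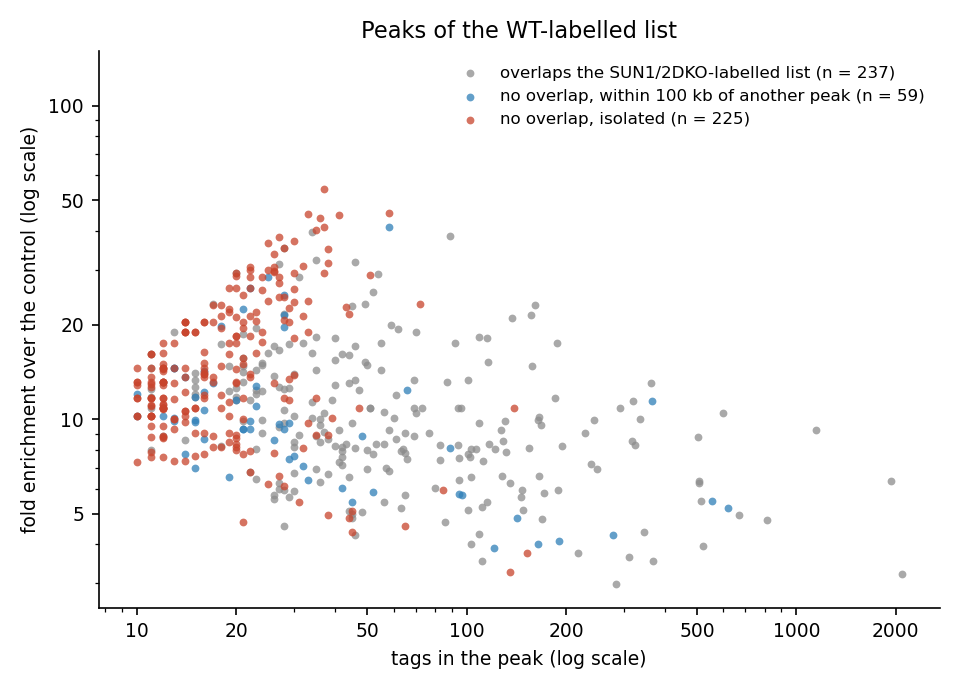
Each point is 1 of the 521 peaks of the list labelled WT, with its tags on the x axis and its fold enrichment over the control on the y axis, both on log scales. The 225 isolated peaks (red) fill the upper left, from 10 tags up, while the 237 peaks that overlap the other list (grey) reach 2082 tags.

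Compared with the 237 peaks that overlapped the other list, the isolated ones were shorter, held fewer tags and had the higher fold enrichment. The overlapping peaks had a median length of 967 bp, 49 tags and a fold enrichment of 9.60 (8.77 to 10.45). The 59 clustered peaks without overlap had a median length of 748 bp, 23 tags and a fold enrichment of 9.78 (8.65 to 11.04), which is close to the overlapping peaks and below the isolated ones. Only 8 isolated peaks (3.56%) held 50 tags or more, against 117 (49.4%) of the overlapping ones and 26.7% of the list. Peaks longer than 1000 bp were 18 (8%) and 114 (48.1%), respectively, and 29.0% of the list. Among the isolated peaks only in the list labelled SUN1/2DKO, 5.625% held 50 tags or more and 6.25% were longer than 1000 bp.

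The order of the classes depended on the measure of height. On the log2 scale, the median fold enrichment of the isolated peaks was 0.49 above that of the other 296 peaks, whereas their median was lower by tags, by tags per kb and by score. Against the 59 clustered peaks alone, the isolated peaks were lower by tags and by tags per kb (28.2 against 30.3) but not by score, with 69.72 against 65.55. Tag density was 28.2 tags per kb (26.2 to 30.6) in the isolated peaks and 42.3 (38.6 to 47.2) in the others. The background behind each fold enrichment is not listed, and why the order turned was not tested.

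Past a fold enrichment of 10 there were 176 isolated peaks (78.2%, Wilson interval 72.4% to 83.1%), where 59.7% of all peaks of the list passed. Past 20 there were 64 (28.4%, 22.9% to 34.7%), against 16.7% of the list, and past 30 there were 18 (8%), against 4.8% of the list. The score gave another picture, since 70 isolated peaks (31.1%) reached 100, below the 37.6% of the whole list. An FDR of at most 5% was met by 114 isolated peaks (50.7%), against 57.4% of the list. Since these limits apply to the contrast that chose the peaks, the shares are given beside each other and nothing further is read from them. The lowest score in the list was 50.01, close to the caller's limit. A score of at most 60 was held by 85 of the 225 isolated peaks, against 143 of the 521 in the list (27.4%). Of the isolated peaks, 56 (24.9%) held 12 tags or fewer, against 13.1% of the list and 39.4% of the isolated peaks only in the list labelled SUN1/2DKO. Exactly 10 tags, the fewest in the list, were held by 9 of the 225 isolated peaks, against 11 of the 521 in the list (2.11%). By fold enrichment, 42 of the 225 isolated peaks lay from 5 to 10, against 180 of the 521 in the list (34.5%). From 10 to 20 there were 112, against 224 (43%), and from 20 to 30 there were 46, against 62 (11.9%). The summit lay in the central 50% of the length in 208 of the 225 isolated peaks, against 450 of the 521 in the list (86.4%).

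**Figure D2:**
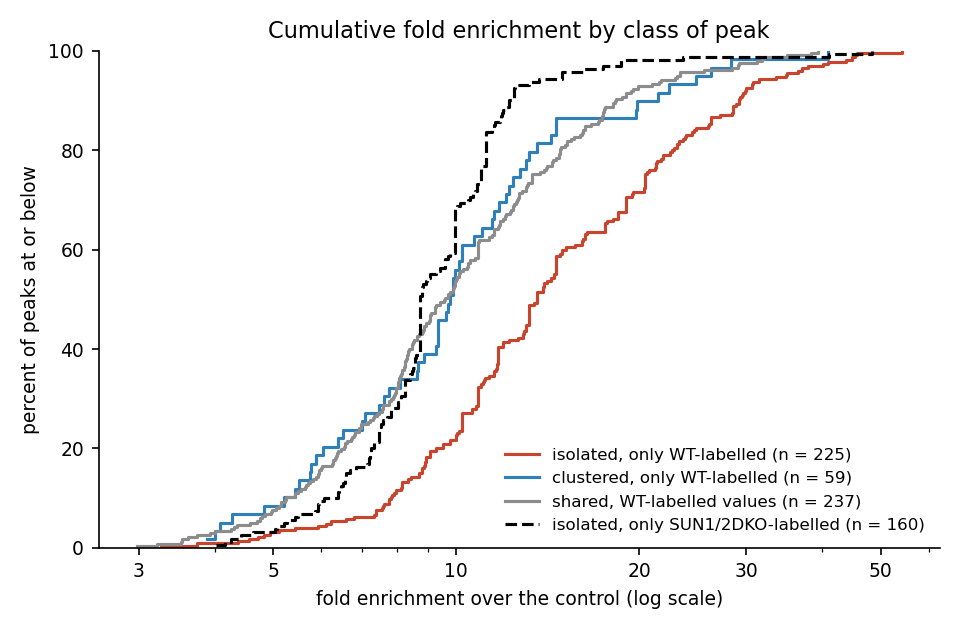
The lines give, for each class, the percent of peaks (y axis) at or below a fold enrichment (x axis, log scale). The isolated peaks only in the list labelled WT (red, median 13.6) lie to the right of the clustered (blue, 9.78) and shared (grey, 9.60) peaks of the same list and of the isolated peaks only in the list labelled SUN1/2DKO (dashed, 8.72).

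The 10 isolated peaks with the highest fold enrichment ranged from 36.56 to 54.11, with 25 to 58 tags over 339 to 1099 bp. The first, chr14:75745205-75745543, held 37 tags (exact Poisson 95% interval 26.1 to 51.0, counting error only) in 339 bp. At 109 tags per kb it was the densest of all isolated peaks, and its score of 401.3 was also their highest. Next came chr17:17140111-17141209 with 58 tags (44.04 to 74.98) and a fold enrichment of 45.65. The peak at chr8:144679310-144679912 held 33 tags (22.7 to 46.3) at a fold enrichment of 45.33, and lay past the last RefSeq gene of mouse chromosome 8.

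The peaks ranked 4 to 10 were spread over 5 chromosomes. Chromosome 12 held chr12:110436678-110437561 (44.84-fold, 41 tags) and chr12:106695989-106696590 (37.12-fold, 30 tags). Chromosome 7 held chr7:16685399-16686051 (43.87-fold, 36 tags) and chr7:21985172-21985816 (40.11-fold, 35 tags), which are each other's nearest peaks in the list at a gap of 5299120 bp. The rest were chr5:150284231-150285162 (40.95-fold, 37 tags), chr14:92587718-92588354 (38.02-fold, 27 tags) and chr6:24721086-24721446 (36.56-fold, 25 tags). Their FDR, as MACS gave it, was between 4.17% and 8.33% over all 10, and 7 of the 10 were above a limit of 5%.

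Ranking by score or by tags brought out other peaks. The isolated peak second by score, 361.62, was chr7:2393421-2394666 with 72 tags (56.3 to 90.7) and a fold enrichment of 23.29. It was also the only isolated peak within 100 kb of a negative peak of the list labelled SUN1/2DKO, at 22435 bp. With a score of 302.98 came chr5:164186-167184, a 2999 bp region with 139 tags (117 to 164) but a fold enrichment of only 10.87. Next was chr1:154908915-154909992, with a score of 286.43, 51 tags and a fold enrichment of 28.84.

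Some of the peaks with the most tags and the greatest length had the lowest fold enrichment. The longest, chr2:91789391-91794528, spread 152 tags (129 to 178) over 5138 bp and reached 3.74-fold with a score of 51.29, near the cutoff. The lowest fold enrichment, 3.26, belonged to chr19:36778131-36781455, with 135 tags (113 to 160) over 3325 bp. The peak chr19:7515173-7516036 was different in shape, with 85 tags (67.9 to 105) in 864 bp, or 98.4 per kb, and a fold enrichment of 5.93. Of the 7 isolated peaks below 5-fold, 6 were longer than 1000 bp, among them chr4:44751-46512 (4.37-fold, 45 tags). The only short one, chr8:82754551-82754839, held 21 tags in 289 bp at 4.71-fold.

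Among the isolated peaks, score and fold enrichment went together (Spearman rho = 0.77, Pearson r = 0.82, n = 225 regions), and length and fold enrichment hardly did (rho = -0.09, r = -0.17). In the overlapping peaks these relations were rho = 0.38 (r = 0.34) and rho = -0.42 (r = -0.30), with n = 237. These are correlations across regions that share 1 library, 1 control and 1 scaling, and score and fold are computed from the same tags. In numbers, 56 of the 64 isolated peaks past 20-fold also had a score of at least 100, and only 2 isolated peaks below 10-fold did. The same counts are not given for the other peaks, so these are a description of the isolated peaks only.

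For some isolated peaks the fold enrichment could be read as a number of tags at the summit, on the assumption that the ChIP pile was not scaled. The header says that the larger dataset, here the ChIP library, was scaled to the smaller, and how that enters the deposited fold enrichment was not checked. The genome-wide background of the list labelled WT, from 10034265 control tags used, a fragment length of 184 bp and the effective genome size of 2.7e+09, was 0.684 tags under a summit. On this assumption a single tag there is worth a fold enrichment of 1.46. In 69 isolated peaks (30.7%, Wilson interval 25.01% to 36.97%) the deposited fold enrichment equalled a whole number of tags over this background to its 2 decimals. This held for 9 of 237 overlapping peaks (3.80%) and for 7 of 59 clustered ones (11.9%). MACS takes the largest of the genome-wide and regional backgrounds. With the 10706595 ChIP tags in place of the control tags, only 1 isolated peak gave a whole number.

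Read in this way, the summit of these 69 peaks was 5 to 37 tags high, with a median of 10, and a median of 80.8% of the tags of a peak (36.8% to 100%) lay under it. In no case did the height exceed the tags listed. In 10 peaks every tag covered the summit, and these were 224 to 361 bp long with 10 to 37 tags. The strongest isolated peak, chr14:75745205-75745543, was of this kind, with 37 of 37 tags at its summit, and so was chr6:24721086-24721446, with 25 of 25. At chr8:144679310-144679912 it was 31 of 33 tags and at chr14:92587718-92588354 26 of 27.

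**Figure D3:**
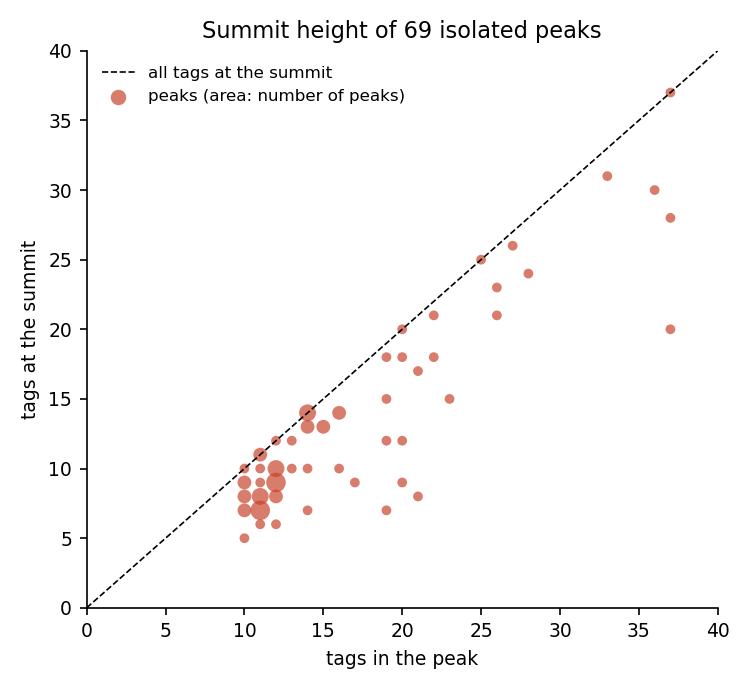
For the 69 isolated peaks whose fold enrichment is a whole number of tags over the genome-wide background, the tags at the summit (y axis) are plotted against all tags of the peak (x axis), with the area of a point giving the number of peaks. Points on the dashed line are the 10 peaks with all tags at the summit, from 10 to 37 tags.

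The fold enrichment of the other 156 isolated peaks was no whole number of tags over this background. These peaks were longer, with a median of 667 bp (626 to 728) against 533 bp (498 to 593), and held 20 tags (19 to 22) against 14 (12 to 16). Their median fold enrichment was 12.9 (11.2 to 13.9) against 14.6 (13.16 to 19.01), with overlapping intervals. Both kinds reached high values: 41 of the 156 and 23 of the 69 passed 20-fold, and 6 of the 10 peaks of highest fold enrichment had a whole summit height.

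The rule asks for no shared bp with the list labelled SUN1/2DKO, but also keeps isolated peaks more than 100 kb from every overlapping peak of their own list, so distance to that list is partly set by it. The median gap to the nearest peak of that list was 4.04 Mb (3.05 to 5.16), up to 50.3 Mb. In the isolated peaks only in the list labelled SUN1/2DKO, the median gap to the list labelled WT was 2.66 Mb. For the clustered peaks without overlap the median gap was 12.8 kb (4.14 to 25.7). The gap to the nearest peak of their own list had a median of 2.59 Mb and reached 37.4 Mb. By distance to the other list, 33 isolated peaks lay from 100 kb to 1 Mb, 124 from 1 to 10 Mb and 56 farther. No isolated peak overlapped a negative peak (a region called with ChIP and control exchanged) of either list. Within 100 kb of a negative peak of the list labelled WT lay 2. The same counts are not given for the other peaks of the list, so these cannot be read as particular to the class.

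Only 12 isolated peaks lay within 100 kb of a peak labelled SUN1/2DKO, and most of these had a low fold enrichment. Their median fold enrichment was 8.40 (4.55 to 11.15), against 13.9 (13.2 to 14.8) for the 213 farther away, while their median of tags was 22 against 19. Below 10-fold were 8 of the 12. The other 4 reached 10-fold, as against 172 of the 213 farther away and 311 of the 521 peaks of the list. The nearest, chr19:37792704-37793383, held 20 tags at 8.91-fold, 272 bp from a peak labelled SUN1/2DKO with 19 tags at 7.65-fold. At chr4:44751-46512 the gap was 434 bp, and both peaks held 45 tags, at 4.37-fold and 4.76-fold. At chr18:15390166-15390978 the gap was 958 bp, with 22 and 29 tags at 6.79-fold and 7.09-fold. In these 3 places the lists thus held neighbouring peaks of like height that the overlap rule keeps apart.

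The strongest isolated peak was the highest of the 4 among these 12 that reached 10-fold. It lay 15374 bp from chr14:75760918-75761585 in the list labelled SUN1/2DKO, which held 15 tags at 7.81-fold, whereas the isolated peak held 37 tags at 54.11-fold. At chr15:61422160-61422715 the values were 12 tags at 11.15-fold and, 13820 bp away in the list labelled SUN1/2DKO, 14 tags at 11.18-fold. At chr3:75679303-75680697 they were 65 tags at 4.55-fold and, 11717 bp away, 364 tags at 3.55-fold. No other isolated peak within 100 kb of that list passed 11.70-fold. A peak missing from the list labelled SUN1/2DKO is not a place without tags in that library, because only regions past the p cutoff are listed. The lowest score there was 50.03 and the fewest tags 10.

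**Figure D4:**
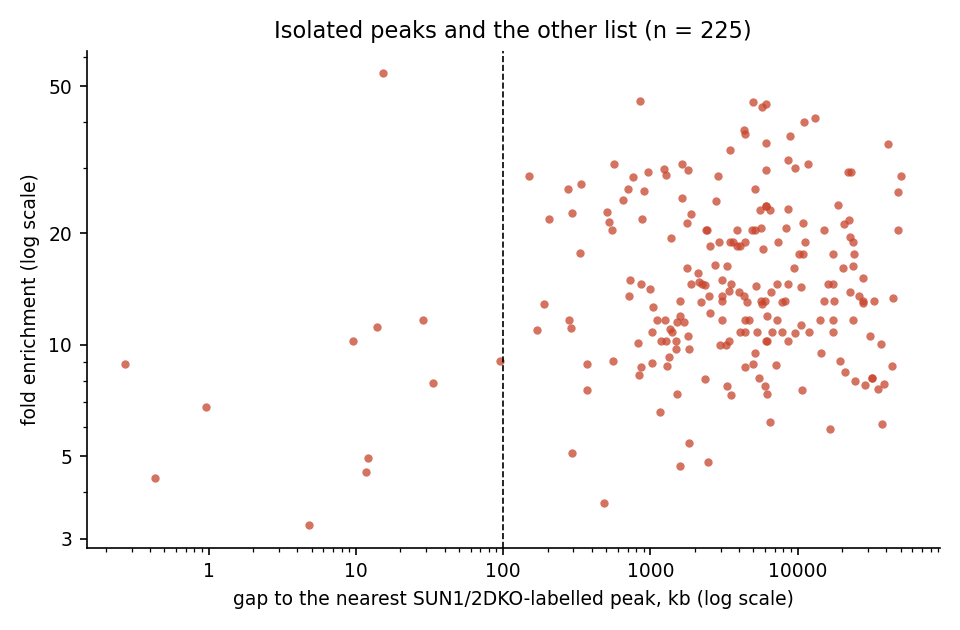
Each point is 1 of the 225 isolated peaks, with the gap to the nearest peak labelled SUN1/2DKO in kb on the x axis and its fold enrichment on the y axis, both on log scales, and the dashed line marks 100 kb. Left of the line are 12 peaks, 8 of them below 10-fold, and the single high point there is the strongest isolated peak at 54.11-fold.

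The mirror-image class, isolated peaks only in the list labelled SUN1/2DKO, held 160 of 819 peaks and had a lower fold enrichment, as had its whole list. The median fold enrichment was 7.97 over all 819 peaks of that list and 11.12 over all 521 of the list labelled WT, while by tags the order was the other way, with medians of 36 and 27. The median of the class was 14 tags (13 to 15), 557 bp (532 to 593) and a fold enrichment of 8.72 (8.71 to 9.58). Past 20-fold there were 3 of the 160 (1.88%), near the 2.32% of its own list, whereas the 64 of 225 isolated peaks labelled WT (28.4%) stood beside 16.7% of theirs. Past 10-fold it was 31.9% of the 160 and 29.4% of their list. The ChIP library labelled SUN1/2DKO had 12255444 tags used, more than the 10706595 of the library labelled WT, and on the assumption above 1 tag at a summit was worth 1.24-fold there and 1.46-fold here. Both values take the background from the smaller of the ChIP and control totals, which is the ChIP total there and the control total here. With the larger total, the control, 6 of the 160 peaks gave a whole number in place of 55. With the smaller totals, the share of whole summit heights was 34.4% (27.5% to 42.0%) in that class and 30.7% here, with overlapping intervals. The headers name a different ChIP target and control for each list, so target, control, library and label cannot be told apart in this comparison.

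Isolated peaks were listed on each of chromosomes 1 to 22 and X. Chromosome 1 held 21, chromosome 11 held 19, chromosome 7 held 17 and chromosome 19 held 15. Chromosome 4 had 56 peaks of the list but only 6 isolated ones, and chromosome 21 had 25 and 2. On chromosome 6, by contrast, 11 of 13 peaks were isolated, and on chromosome 3 it was 9 of 11. Per Mb of the span covered by the lists, which can be shorter than the chromosome, chromosome 19 was the densest with 0.269 isolated peaks, followed by chromosome 20 with 0.159 and chromosome 11 with 0.146, and chromosome 13 the sparsest with 0.0176. The mean over chromosomes 1 to 22 and X was 0.0784 per Mb.

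The fold enrichment of isolated peaks varied widely within chromosomes. Over the 17 chromosomes with at least 8 isolated peaks, the median ran from 10.6 on chromosome 11 to 21.9 on chromosome 14. The 19 peaks on chromosome 11 ranged from 6.11 to 34.94, and the 8 on chromosome 14 from 13.16 to 54.11. Chromosome 1 had a median of 19.01 and a range from 4.83 to 35.10 over its 21 peaks. On chromosome 19, the densest, the median was 13.0 and the highest value 22.69. Of the peaks on chromosomes that mice lack, chr21:19191488-19192267 had the highest fold enrichment, with 26 tags at 33.63-fold.

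**Figure D5:**
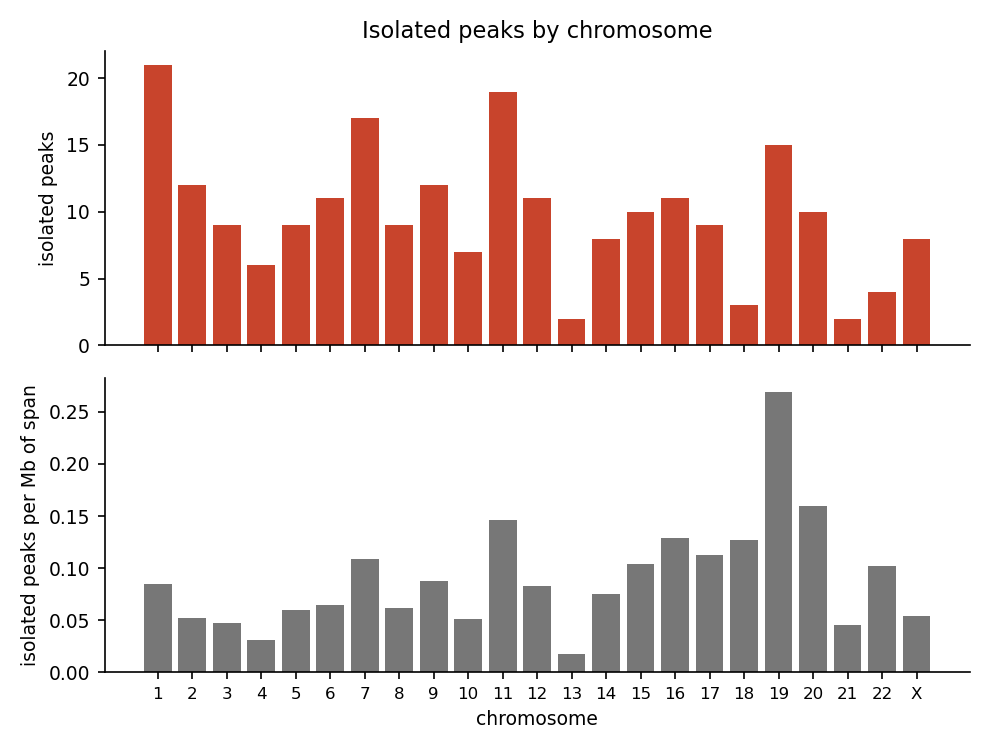
The upper bars give the number of isolated peaks on each of chromosomes 1 to 22 and X, and the lower bars the same number per Mb of the span that the lists cover there. Chromosome 1 has the most peaks (21) and chromosome 19 the most per Mb (0.269), while chromosomes 13 and 21 hold 2 each.

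At the limit of the rule, the isolated peaks with the smallest gap were a pair on chromosome 1, chr1:155532572-155533196 (24.61-fold, 27 tags) and chr1:155658290-155659165 (21.42-fold, 32 tags), 125093 bp apart. Next came a pair on chromosome 7 at 136103 bp, of 19.02-fold and 13.04-fold. Just outside were chr7:61285066-61285591 (13.16-fold, 12 tags) and chr7:61384636-61385280 (9.88-fold, 13 tags), 99044 bp apart. No peak without overlap had a gap between 99044 and 125093 bp, so small shifts of the 100 kb limit leave the class as it is.

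In all, the 225 isolated peaks covered 157426 bp and held 5100 tags. That was 14.2% of the tags in peaks of the list labelled WT and 0.0476% of the 10706595 ChIP tags used.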

How the data were processed

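Lists of ChIP-seq peaks and negative peaks were analysed for the libraries labelled WT and SUN1/2DKO, 1 each, which the labels give as H3K4me3 from PEMs. Per the file headers, the authors called the peaks with MACS 1.4.2 against an input control (effective genome size 2.7e+09, p cutoff 1e-05, at most 1 tag per position, larger dataset scaled to the smaller). The processing notes also name Trimmomatic 0.33, Bowtie 1.1.2, MACS2 2.1.0 and the builds hg38 and mm10, without saying which build, if either, gave the positions. As given above, mice lack some of the chromosomes listed, and a negative peak may reach past the end of its chromosome in hg38. The authors deposited for each peak a count of tags (not normalized), a score (minus 10 times log10 of the p-value), a fold enrichment (a ratio to the background) and, for peaks, an FDR in percent derived from the negative peaks. Tags used were 10706595 (ChIP) and 10034265 (control) for the list labelled WT, and 12255444 and 14285407 for the other.

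Peaks were classed by shared bp and by the gap to other peaks. Medians have 95% order-statistic intervals, shares Wilson intervals and tags exact Poisson intervals. These cover counting error or the median over regions only, and no test between labels was made. Peaks named are the 10 highest by fold enrichment, 5 by score, 5 by tags, 3 longest, 3 lowest, those at the 100 kb limit and the one nearest to the other list. Any others were singled out after their values were seen. The members and these rules were chosen with earlier results of these data known, and the summit heights, in particular, were examined after the fold values had been seen. The planned list of genes and the sequence motif were not examined, since a genome of the build of the positions was not used here. Mouse TSSs were those of 32851 RefSeq promoters of GRCm38.p6. The functions were tested on simulated lists. Python 3.11.15, numpy 2.4.6, pandas 2.3.3, scipy 1.17.1 and matplotlib 3.10.9 were used.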

Additional observations from a re-analysis of the deposited data

How the results depend on the processing

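The number of isolated peaks, 225, was between 159 and 257 under 9 of 11 alternatives (gaps from 10 kb to 1 Mb, other definitions of overlap, isolation from both lists, merging, chromosome names that mice have), and their median fold enrichment between 13.2 and 13.9. Stricter calls changed both. With an FDR of at most 5%, 114 peaks remained, with a median fold enrichment of 19.01, 91.2% of them past 10-fold, and a log2 ratio of median fold enrichment to the other peaks of 0.97. With a score of at least 100, these were 70 peaks, 25.3, 97.1% and 1.38. Both limits were applied to the isolated peaks alone. The score limit keeps the peaks of higher score by construction. The FDR limit does not keep all the higher peaks, since 7 of the 10 with the highest fold enrichment were above it. The log2 ratio, 0.49, turned to -1.21 with tags, -0.58 with tags per kb and -0.35 with the score as the measure of height. The cause was not tested. On chromosomes 1 to 19, X and Y it was 0.41, and 11.5% of the isolated peaks lay outside the mouse limits. Past 5-fold were 96.9%, near the 94.2% of the whole list, and past 20-fold 28.4%, against 16.7% of the list. Near a mouse TSS were 6.31% within 5 kb and 14.6% within 10 kb. Taking the summit background from the larger tag total, an alternative chosen after seeing the data, left 1 whole height in place of 69. Of the isolated peaks, 56 rest on 12 tags or fewer, and depth was not varied. Leaving out a replicate was not possible with 1 library each. No paired analysis was possible because each label had 1 library and no test was made.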
